A study of Mus musculus with 90 samples.

Results

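The loss of the glucocorticoid receptor (GR) from hepatocytes was compared between mice on caloric restriction and mice on control diet at ZT12, the time of lights-off, as the interaction of genotype and diet: the difference of GR LKO and WT livers on caloric restriction minus the same difference on control diet. The livers were chosen by their labels, as all those collected at ZT12 in the time series of either diet and of both genotypes, which gave 14 of the 90 livers of the series. They were 3 WT and 3 GR LKO livers on caloric restriction and 4 WT and 4 GR LKO livers on control diet, each from 1 male C57BL/6J mouse. In both time series WT mice carried the floxed receptor allele without Cre (GRfl/fl), and GR LKO mice carried it together with Alb-Cre (GRfl/fl x Alb-Cre). The albumin promoter makes this Cre active in hepatocytes, while RNA was taken from whole liver. Mice entered the feeding protocol at 12 weeks of age and stayed on it for 8 weeks. Restricted mice came down stepwise to 40% fewer calories, given daily at ZT12, and control mice ate freely with food limited to the night at the end (night-restricted feeding). Polyadenylated RNA was sequenced in bulk. The question of the comparison was which responses to hepatic GR loss depended on the diet. Beside these livers the series held the other time points of both diets, 3 WT livers on caloric restriction against 3 on control diet at ZT12 in an experiment of their own, and 3 WT livers of mice injected with corticosterone for 7 days against 3 control livers at ZT12. By the study's methods the corticosterone experiment took males of 12 weeks, on night-restricted feeding during the 7 days. Its comparison mice were injected with the vehicle, ethanol in oil, and the 3 control livers are titled NR.

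GR is a nuclear receptor that binds glucocorticoids, the adrenal hormones that peak shortly before an animal becomes active and that rise when food is scarce. In hepatocytes the hormone-bound receptor enters the nucleus, binds glucocorticoid response elements and raises or lowers transcription of genes of gluconeogenesis, amino acid breakdown, lipid handling and the clock, often beside other factors such as FoxO1, STAT5 and PPARalpha. An interaction of genotype and diet is different from an effect of the receptor that is alike on both diets: it asks for genes whose dependence on GR was larger, smaller or of another sign when food was restricted.

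The 14 libraries held 11408194 to 20788575 counts, with 16249746 to 20788575 on caloric restriction in WT, 16766064 to 19230725 in GR LKO, and on control diet 11408194 to 14544579 in WT and 12974408 to 16066590 in GR LKO. The top 10 genes held 25% to 25.8% of the counts in restricted WT livers and 21.6% to 23.3% in restricted GR LKO livers, against 18.7% to 19.9% and 18.1% to 18.3% on control diet. Both genotypes of a diet belonged to the same set of libraries, but the 2 diets were separate library batches, so that for the level of a gene on caloric restriction against control diet in these livers batch and diet cannot be told apart. A shift that a batch gives to both genotypes drops out of the interaction. Levels are given as CPM after TMM scaling and differences as log2. A gene was called when its p-value from edgeR's quasi-likelihood test, adjusted by the Benjamini-Hochberg method over all genes tested, was under 0.05. Calls of edgeR are those of the fit of the 14 livers unless another fit is named.

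*Nr3c1*, the gene of GR, was measured first, because it checks the genotype labels. On caloric restriction it stood at 96.7, 91.8 and 97.2 CPM in the WT livers and at 28.9, 30.1 and 28.5 CPM in the GR LKO livers. On control diet it stood at 78.8, 84.3, 72.4 and 84.6 CPM (WT) and at 17.8, 19.7, 19.3 and 23.7 CPM (GR LKO). All 7 GR LKO livers lay below all 7 WT livers, as their labels have it, with a genotype effect of -1.69 ± 0.10 (log2, SE) on caloric restriction against -1.98 ± 0.09 on control diet (adjusted p = 4.94e-07 and 6.91e-08, edgeR). The interaction of *Nr3c1* was 0.30 ± 0.13 (95% interval 0.02 to 0.57) and did not pass the test (adjusted p = 0.311, edgeR). Transcripts left in GR LKO livers can come from cells other than hepatocytes or from the recombined allele, and counts per gene do not separate these sources.

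Of the 7 hepatocyte markers 7 were tested and none was called by edgeR (2 lower at an unadjusted p under 0.05, 1 called by DESeq2), and 70.0% of their summed level came from *Alb*. That sum was 165333 to 171516 CPM (WT) and 121047 to 139344 CPM (GR LKO) on caloric restriction, and 89956 to 107747 CPM and 72801 to 93251 CPM on control diet. The genotypes were apart on caloric restriction, with GR LKO livers lower, and overlapped on control diet, and 4 and 2 of the 7 were called for genotype, all lower in GR LKO (17.4% and 2.96% of all genes tested were called, in either direction). The log2 ratio of the sums, GR LKO to WT, was -0.37 and -0.25, and without *Alb* -0.25 and -0.29. The part of this shift in the interactions was not tested. One WT liver on caloric restriction, replicate 3, stood apart in genes of the exocrine pancreas: 10 markers summed to 1181 CPM there, against 0.057 to 2.59 CPM in the other 13 livers, with *Amy2a5* as the most abundant at 34.0% of the sum and *Prss1* at 0 in all 14. Of these markers 1 passed the filter on low counts, *Cela2a*, at 131 CPM in that liver, 0 and 0.131 CPM in the other restricted WT livers and 0.057 to 0.158 CPM in the restricted GR LKO livers. Its fitted interaction is therefore no measure of size. It was not called (adjusted p = 0.322), but was called in the edgeR fit of 78 libraries (adjusted p = 0.0253). The count of interaction calls is therefore also given without this liver.

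At ZT12 the interaction was called for 123 of 12225 genes (1.01%), 60 with a value above 0 (0.491% of the genes tested), whose GR LKO minus WT difference was more positive on caloric restriction, and 63 with a value below 0 (0.515%). Among the former were *Serpina6*, which encodes corticosteroid-binding globulin, the carrier of corticosterone in plasma, and *Chdh*, choline dehydrogenase. Among the latter were the cell cycle inhibitor *Cdkn1a*, the secreted protease inhibitor *Serpina3k* and *Gfra1*, a co-receptor for glial cell line-derived neurotrophic factor. At an unadjusted p under 0.05 there were 1742 genes (14.2%), 914 above 0 (7.48%) and 828 below (6.77%), the shares beside which the counts of lists at that threshold below can be read. Of the fits that left out 1 liver, those without replicate 1 or 3 of WT on control diet gave 74 or 50 calls, replicate 1, 2 or 4 of GR LKO on control diet 60, 72 or 60, replicate 2 or 3 of WT on caloric restriction 59 or 76, and replicate 1, 2 or 3 of GR LKO on caloric restriction 64, 71 or 49, while the other 4 omissions gave 86 to 148. On the same libraries DESeq2 called 237 genes above and 230 below 0, with 121 of the 123 among them, edgeR on all 78 libraries of both time series called 402 (3.01% of 13376 tested, 102 of the 123 among them), and 3 mice in every group gave 79. The counts of lists called by DESeq2 below can be read beside its 237 and 230 of the 12225 genes.

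The genotype itself was called for 2132 genes on caloric restriction (17.4%, with 1089 higher in GR LKO, 8.91%, and 1043 lower, 8.53%) and for 362 on control diet (2.96%, 164 higher, 1.34%, and 198 lower, 1.62%). The median size of the genotype effect over all genes tested was 0.25 on caloric restriction against 0.13 on control diet. Without replicate 2 of WT on control diet the count on that diet was 225. Of the 123 genes with an interaction, 116 (94.3%) differed more between genotypes on caloric restriction than on control diet, and 7 differed less, where 69.6% of all 12225 genes tested differed more on caloric restriction. The genotype effect was called on caloric restriction alone for 91, on both diets for 28 and on control diet alone for 4, namely *Fam213b*, *Nudt16l1*, *Ptpn9* and *Necab1*, of which the last 3 were looked up after their values were seen. Genes with an interaction above 0 had a median genotype effect of 1.11 on caloric restriction against 0.17 on control diet, with a median interaction of 0.94. Those below 0 had -1.08, -0.14 and -0.81, against a median interaction of 0.00 over all genes tested. The estimates on the 2 diets had opposite signs for 28 of the 123 (22.8%), against 34.1% of all genes tested. Both estimates were called for *Fmo2* and *Mup18*, the second of which was also looked up after its values were seen.

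**Figure D1:**
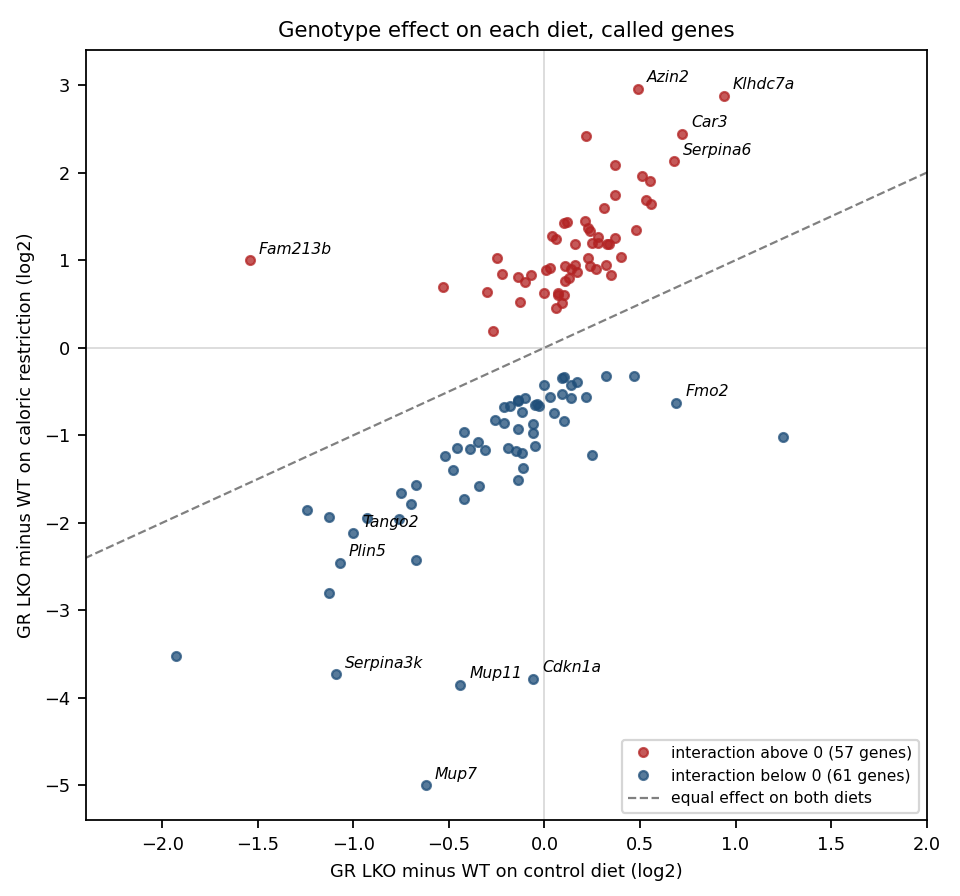
Genotype effect (GR LKO minus WT, log2) on control diet (x axis) against caloric restriction (y axis) for genes with a called interaction, red above 0 and blue below 0, without the 5 genes that had a group of livers at 3 counts or fewer each. Most points lie farther from 0 on the y axis than on the x axis, and the dashed line marks an equal effect on both diets.

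*Cdkn1a* encodes p21, which holds cells in the cycle's first gap phase and is a target of GR, FoxO factors and p53. It was at 36.2, 18.7 and 26.0 CPM in the WT livers on caloric restriction and at 1.72, 1.95 and 2.11 CPM in the GR LKO livers. On control diet it was at 1.24, 1.08, 1.52 and 0.607 CPM (WT) and at 1.3, 0.633, 1.05 and 1.26 CPM (GR LKO). Only the 3 restricted WT livers were high: the genotypes did not overlap on caloric restriction and overlapped on control diet, where their levels were near 1 CPM. The genotype effect was -3.78 ± 0.31 on caloric restriction against -0.06 ± 0.32 on control diet, and the interaction was -3.72 ± 0.43 (adjusted p = 0.00303, edgeR).

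*Klf9* encodes a Krüppel-like transcription factor that glucocorticoids induce in many tissues. Its levels were 164, 137 and 150.3 CPM (WT) and 69.1, 55.2 and 64.5 CPM (GR LKO) on caloric restriction, and 98, 111, 116 and 134 CPM and 81.5, 79.4, 76.7 and 80.8 CPM on control diet (WT first here and below). GR LKO livers lay below WT livers on both diets without overlap, by -1.24 ± 0.11 and -0.52 ± 0.10, and the interaction was -0.72 ± 0.15 (adjusted p = 0.0395). That call was kept in 1 of the 14 fits that left out a liver, with adjusted p up to 0.0928 in the others, and was lost with thinned counts and in the fit of 78 libraries (up to 0.0649, edgeR). *Serpina6* ran the other way. Its levels were 354, 392 and 544 CPM (WT) and 2044, 1754 and 1786 CPM (GR LKO) on caloric restriction, and 336, 273, 309.7 and 287 CPM and 497, 499, 541 and 387 CPM on control diet. GR LKO livers were above WT livers on both diets without overlap, and the 3 restricted GR LKO livers stood far above the other 11. The genotype effect was 2.13 ± 0.16 on caloric restriction against 0.68 ± 0.14 on control diet, and the interaction was 1.45 ± 0.21 (adjusted p = 0.00671, edgeR).

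Of 25 listed GR targets, written from general knowledge, 25 were tested, 2 were called below 0 (*Cdkn1a* and *Klf9*) and none above, with 1 above and 7 below at an unadjusted p under 0.05, 4 called below 0 by DESeq2, and a median interaction of -0.46. Their median genotype effect was -1.57 on caloric restriction against -1.06 on control diet, so that as a list they were lower in GR LKO on either diet, with 18 and 14 of the 25 called for genotype, where 17.4% and 2.96% of all genes tested were called. Members without a call included *Pck1*, the gene of the enzyme that commits carbon to gluconeogenesis, at 0.60 (95% interval 0.03 to 1.17), *Tat*, tyrosine aminotransferase, at -0.32 (-0.86 to 0.22), *Errfi1*, a brake on EGF receptor signaling, at -0.48 (-0.84 to -0.13), and *Tdo2*, tryptophan dioxygenase, at -0.46 (-0.76 to -0.15). *Pck1* means were 6987 CPM (WT) and 5446 CPM (GR LKO) on caloric restriction, and 4137 and 2150 CPM on control diet, the larger genotype difference being the one on control diet. The control GR LKO livers were at 3273, 1794, 1974 and 1558 CPM, with replicate 1 above its group. Without that liver *Pck1* was called at 0.87 (adjusted p = 0.0141), and in no other of the 14 fits without a liver. *Tdo2* too was called in 1 of these fits, without replicate 1 of WT on caloric restriction (adjusted p = 0.0399, edgeR). Of 25 genes of growth arrest and p53 targets 23 were tested and *Cdkn1a* alone was called, by DESeq2 as well, with 5 below 0 and none above at an unadjusted p under 0.05 and a median of -0.22.

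*Serpina3k* encodes a serine protease inhibitor of plasma. It was at 5849, 10067 and 6976 CPM (WT) and at 643, 696 and 369.6 CPM (GR LKO) on caloric restriction, and at 10706, 12238, 11333 and 13912 CPM (WT) and 5503, 5055, 5612 and 6366 CPM (GR LKO) on control diet. The genotypes did not overlap on either diet, and the restricted GR LKO livers were far below all others. The genotype effect was -3.73 ± 0.25 on caloric restriction against -1.09 ± 0.19 on control diet, and the interaction was -2.64 ± 0.30 (adjusted p = 0.00287, edgeR). *Wfdc21*, a secreted WAP-domain protein, had an interaction of -1.24 ± 0.17 (adjusted p = 0.00671, edgeR), with means of 288 and 94.6 CPM in WT and GR LKO on caloric restriction against 251 and 197 CPM on control diet. *F9*, coagulation factor IX, had -0.47 ± 0.10 (adjusted p = 0.0483), a call kept in 1 of the 14 fits without a liver (adjusted p up to 0.118 in the others) and lost with a weaker filter, 3 mice per group or thinned counts (up to 0.0872, edgeR). Of 51 acute phase and complement genes 50 were tested and *Serpina3k* and *F9* were called below 0, with a median of -0.05, 3 above and 9 below 0 at an unadjusted p under 0.05 and 6 called below 0 by DESeq2. Without a call were *C3*, the central complement component, at -0.19 (95% interval -0.54 to 0.16), and *Fgb*, a fibrinogen chain, at -0.24 (-0.57 to 0.08). *Serpina3k* and *Serpina6* belong to clusters of similar genes, and how reads were shared among copies makes single members uncertain.

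**Figure D2:**
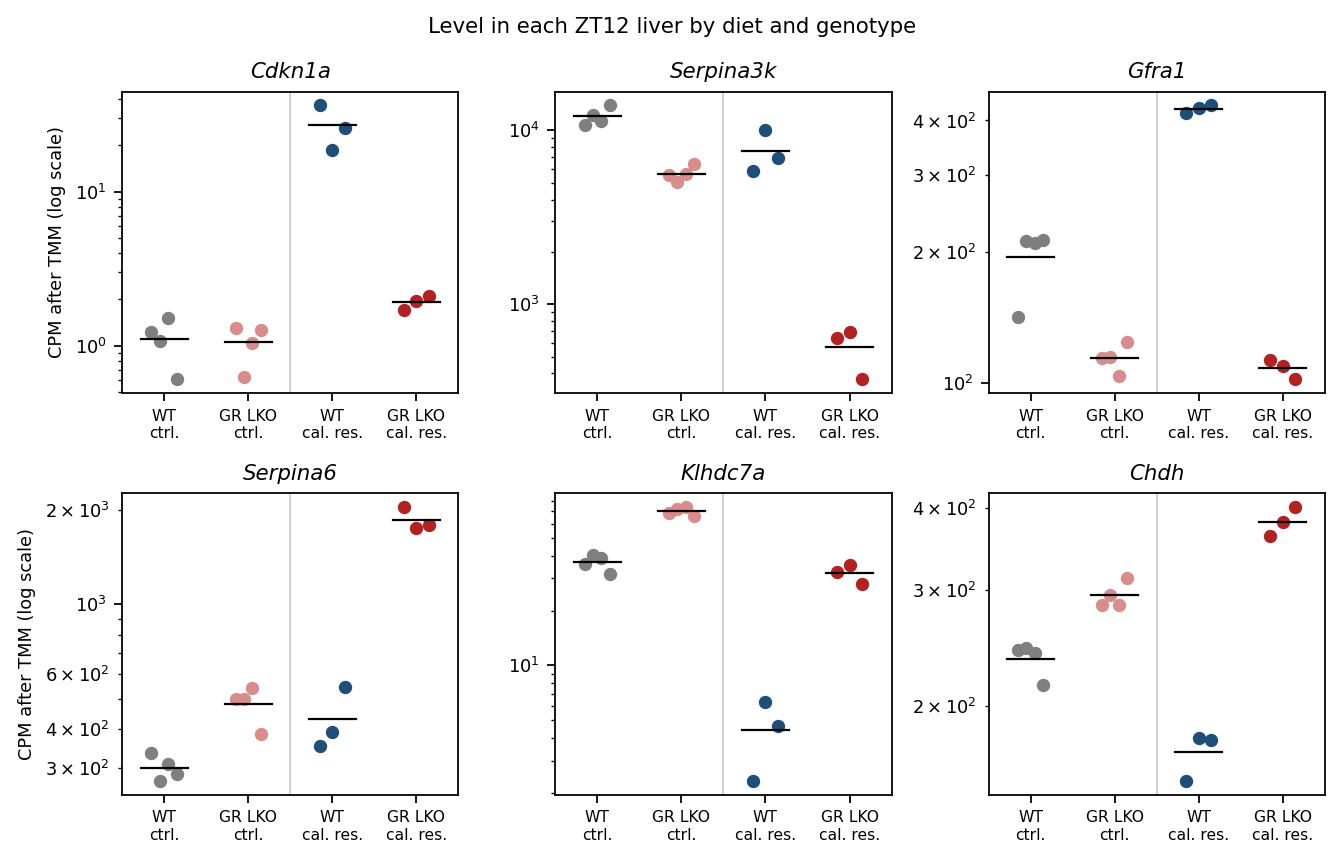
Level of *Cdkn1a*, *Serpina3k*, *Gfra1*, *Serpina6*, *Klhdc7a* and *Chdh* in each of the 14 livers (CPM after TMM scaling, log axis), by genotype and diet, with a line at each group mean. *Cdkn1a* is above 18 CPM in the 3 restricted WT livers and below 2.2 CPM in the other 11, while *Serpina6* is at 1754 to 2044 CPM in the 3 restricted GR LKO livers and at most 544 CPM elsewhere.

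*Gne* encodes the rate-limiting enzyme of sialic acid synthesis and was at 211, 228 and 220.2 CPM (WT) and 99.2, 97.5 and 97.1 CPM (GR LKO) on caloric restriction, and at 183, 179, 194 and 201 CPM and 149, 135, 125 and 139 CPM on control diet. GR LKO livers were below WT livers on both diets, by -1.15 ± 0.08 and -0.46 ± 0.06, and the interaction was -0.69 ± 0.10 (adjusted p = 0.00671, edgeR). *St6gal1*, which adds sialic acid to secreted glycoproteins, was at 21.3, 26.8 and 27.5 CPM (WT) and 65.2, 53.5 and 53.5 CPM (GR LKO) on caloric restriction, and at 52.7, 60.2, 49.4 and 52.7 CPM and 66.0, 61.3, 58.8 and 68.6 CPM on control diet. Here the 3 restricted WT livers were the low ones, the genotypes overlapped on control diet, and the interaction was 0.95 ± 0.15 (adjusted p = 0.012, edgeR). The pair was set side by side after its values were seen.

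*Gfra1*, a receptor of the neurotrophic factor GDNF, was at 415, 428 and 433 CPM (WT) and 113, 109.5 and 102 CPM (GR LKO) on caloric restriction, and at 142, 212, 209.8 and 213 CPM and 114, 115, 104 and 124 CPM on control diet. The GR LKO livers of both diets lay between 102 and 124 CPM, the genotypes did not overlap on either diet, and WT replicate 1 on control diet lay below its group. The genotype effect was -1.96 ± 0.13 on caloric restriction against -0.76 ± 0.11 on control diet, with an interaction of -1.20 ± 0.17 (adjusted p = 0.00671, edgeR). *Gna12*, a G protein alpha subunit, was at 71.9, 63.4 and 59.6 CPM (WT) and 129, 151 and 156 CPM (GR LKO) on caloric restriction, and at 148, 149, 149 and 123 CPM and 169, 160.4, 150 and 153 CPM on control diet. Restricted WT livers were the low group and the other 11 lay between 123 and 169 CPM. *Gna12* had an interaction of 1.02 ± 0.14 (adjusted p = 0.00493, edgeR). *Sept11*, a septin of the filament-forming GTPases, was at 5.36, 6.46 and 6.30 CPM (WT) and 26.2, 27.3 and 23.0 CPM (GR LKO) on caloric restriction, and at 6.13, 6.27, 5.02 and 3.80 CPM and 6.36, 7.42, 5.73 and 7.64 CPM on control diet. Its 3 restricted GR LKO livers alone were high, and the interaction was 1.73 ± 0.23 (adjusted p = 0.00493, edgeR).

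*Fbxo31*, a substrate receptor of an SCF ubiquitin ligase, had group means of 98.5 and 25.5 CPM (WT and GR LKO) on caloric restriction against 69.3 and 31.5 CPM on control diet, and an interaction of -0.80 ± 0.11. *Clpx* encodes the unfoldase of a mitochondrial protease and was at 139, 107 and 126 CPM (WT) and 56.3, 53.7 and 58.3 CPM (GR LKO) on caloric restriction, and at 56.7, 50.1, 43.6 and 40.2 CPM and 45.6, 45.0, 48.9 and 43.0 CPM on control diet. Like *Cdkn1a*, it was high in the 3 restricted WT livers only, and its genotype effect was -1.12 ± 0.12 on caloric restriction against -0.05 ± 0.11 on control diet, with an interaction of -1.07 ± 0.16 (adjusted p = 0.00812, edgeR). *Nucks1*, a chromatin-associated nuclear protein, had -0.91 ± 0.12, *Cdip1*, a p53 target tied to cell death, -0.61 ± 0.09, and *Dirc2*, a lysosomal transporter, -0.93 ± 0.14 (adjusted p 0.00493 to 0.00926, edgeR). For these 3 the genotype was also called on control diet, by -0.75, -1.24 and -0.48. *Tango2*, whose human counterpart is mutated in a disorder with metabolic crises, was at 65.1, 65.2 and 79.7 CPM (WT) and 16.6, 15.5 and 15.7 CPM (GR LKO) on caloric restriction, and at 34.0, 30.8, 29.6 and 35.4 CPM and 15.1, 16.7, 18.2 and 14.7 CPM on control diet. Its 7 GR LKO livers shared a level of 14.7 to 18.2 CPM on either diet, and the WT livers lay above it. *Tango2* had an interaction of -1.12 ± 0.14 (adjusted p = 0.00493, edgeR). *Phospho2*, a phosphatase gene, had -0.91 ± 0.13 and the predicted gene *Gm10053* -0.61 ± 0.08 (adjusted p = 0.00671 and 0.00493, edgeR).

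The FoxO1 list, which the study took from a published fasting experiment, held 208 genes, and 208 were tested. Called below 0 were *Fbxo31*, *Cdip1*, *Dirc2* and *Gne*. Called above 0 was *Nab1*, a corepressor of EGR factors (0.88 ± 0.18, adjusted p = 0.0359, edgeR), and at an unadjusted p under 0.05 there were 34 below and 14 above. DESeq2 called 15 of the list below 0 and 5 above, where edgeR called 4 and 1. The call of *Nab1* was kept in 3 of the 14 fits without a liver (adjusted p up to 0.0899 in the others) and was lost with thinned counts (0.0586, edgeR). The list's median interaction was -0.13. Its median genotype effect was -0.36 on caloric restriction against -0.19 on control diet, and the genotype was called for 91 and 51 of the 208 (17.4% and 2.96% of all genes tested). Of 40 genes of insulin and FoxO signaling 38 were tested and none was called by edgeR (2 above and 5 below 0 at an unadjusted p under 0.05, 3 called by DESeq2, median -0.05), among them *Igfbp1*, an insulin-repressed binding protein, at -1.20 (95% interval -3.08 to 0.68).

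*Chdh*, which oxidises choline on the way to betaine, was at 154, 179 and 178 CPM (WT) and 362, 380.1 and 401 CPM (GR LKO) on caloric restriction, and at 243, 245, 241 and 215 CPM and 285, 295, 285 and 313 CPM on control diet. The lowest group was restricted WT and the highest restricted GR LKO, with no overlap of genotypes on either diet. *Chdh* had an interaction of 0.85 ± 0.11 (adjusted p = 0.00493, edgeR). *Adssl1*, adenylosuccinate synthase of AMP synthesis, had 0.79 ± 0.13 and *Pter*, a phosphotriesterase-related hydrolase, 0.69 ± 0.10 (adjusted p = 0.0131 and 0.00671, edgeR). *Klhdc7a*, which encodes a kelch domain protein, was at 2.32, 6.27 and 4.66 CPM (WT) and 32.7, 35.6 and 28.1 CPM (GR LKO) on caloric restriction, and at 36.1, 40.3, 39.0 and 31.7 CPM and 68.4, 72.6, 74.0 and 66.0 CPM on control diet. GR LKO livers were above WT livers on each diet, by 2.88 ± 0.23 and 0.94 ± 0.17, and the interaction was 1.94 ± 0.28 (adjusted p = 0.00671, edgeR). *Azin2*, an antizyme inhibitor of polyamine metabolism, was lower in count, at 0.86, 0.849 and 0.741 CPM (WT) and 6.93, 6.23 and 5.75 CPM (GR LKO) on caloric restriction, and at 1.86, 2.38, 3.42 and 1.82 CPM and 4.14, 3.97, 2.71 and 2.46 CPM on control diet. The genotypes were apart on caloric restriction and overlapped on control diet, with an interaction of 2.47 ± 0.36 (adjusted p = 0.00671, edgeR).

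*Plin5* encodes a coat protein of lipid droplets that ties them to mitochondria and was at 121, 88.5 and 127 CPM (WT) and 18.4, 16.4 and 25.8 CPM (GR LKO) on caloric restriction, and at 42.6, 57.8, 53.6 and 39.6 CPM and 24.1, 28.5, 18.2 and 21.0 CPM on control diet. GR LKO livers were below WT livers on both diets, by -2.46 ± 0.22 and -1.07 ± 0.19, with an interaction of -1.39 ± 0.28 (adjusted p = 0.0359). The call of *Plin5* was kept in 4 of the 14 fits without a liver (adjusted p up to 0.0933 in the others) and was lost with 3 mice per group or thinned counts (up to 0.0673, edgeR). *Bdh1*, the mitochondrial dehydrogenase of the last step to the ketone body beta-hydroxybutyrate, was at 127, 137 and 127 CPM (WT) and 303, 328 and 352 CPM (GR LKO) on caloric restriction, and at 202, 232, 231 and 192 CPM and 322, 263, 332 and 272 CPM on control diet. Restricted WT livers were the lowest group, GR LKO livers lay above WT on each diet, and the interaction was 0.87 ± 0.14 (adjusted p = 0.0169, edgeR). *Sc5d*, a desaturase of late cholesterol synthesis, had 1.08 ± 0.21 (adjusted p = 0.0301), kept in 5 of the 14 fits without a liver (up to 0.0696 in the others, edgeR).

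Among lipid lists, 39 genes of fatty acid oxidation and PPARalpha targets were tested with a median of 0.01, *Bdh1* called, 3 above and 3 below 0 at an unadjusted p under 0.05, and 2 above and 1 below called by DESeq2. Of 18 lipogenic genes 17 were tested and none was called by edgeR, but 5 were above and 1 below 0 at an unadjusted p under 0.05, 2 were called above 0 by DESeq2, and the median was 0.49. The fatty acid desaturases *Fads2* and *Fads1* had 0.54 (95% interval 0.10 to 0.99) and 0.52 (0.12 to 0.92), while *Scd1* had 0.49 (-0.61 to 1.59). Of 26 cholesterol genes 25 were tested with a median of 0.01 and *Sc5d* called (1 above and 1 below 0 by DESeq2), and of 30 genes of triglyceride synthesis and lipid droplets 28 were tested with a median of 0.02 and *Plin5* called (1 below 0 by DESeq2).

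In glucose metabolism *Ugp2*, which makes UDP-glucose for glycogen, had an interaction of 0.65 ± 0.13 (adjusted p = 0.0359), with means of 478 and 677 CPM on caloric restriction against 455 and 413 CPM on control diet (WT and GR LKO). *Pdp2*, a phosphatase that activates pyruvate dehydrogenase, had -0.78 ± 0.17 (adjusted p = 0.0475), with means of 59.9 and 40.2 CPM and of 33.6 and 38.9 CPM. These calls were kept in 3 and 2 of the 14 fits without a liver (adjusted p up to 0.0862 and 0.117 in the others). Both were lost with a weaker filter and with 3 mice per group, and that of *Pdp2* with thinned counts too (up to 0.0588 and 0.0673, edgeR). Of 20 genes of gluconeogenesis and glycogen 19 were tested, with 5 above and 4 below 0 at an unadjusted p under 0.05, 2 above and 1 below called by DESeq2, and a median of -0.10. *Fbp1*, fructose bisphosphatase, was at 0.47 (95% interval 0.17 to 0.76), *Got1*, aspartate aminotransferase, at -0.98 (-1.92 to -0.05) and *G6pc*, the catalytic subunit of glucose-6-phosphatase, at -0.28 (-1.35 to 0.79). None of them was called in the 14 livers, and *Fbp1* was called in the fit of 78 libraries (adjusted p = 0.0411, edgeR). Of 25 genes of glycolysis and pyruvate control 24 were tested with a median of -0.12 and 2 called below 0 by DESeq2. Of 35 genes of amino acid catabolism and the urea cycle 35 were tested and none was called by edgeR in the fit of the 14 livers (1 above and 7 below 0 at an unadjusted p under 0.05, 3 called below 0 by DESeq2), with a median of -0.23. *Mat1a*, which makes the methyl donor S-adenosylmethionine, was at -1.13 (95% interval -1.69 to -0.56, adjusted p = 0.0666 in the 14 livers, but 0.000306 and so called in the fit of 78 libraries, edgeR), with means of 6271 and 2718 CPM on caloric restriction against 1634 and 1557 CPM on control diet.

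Clock genes had a median near 0 as a list, with a call in each direction. *Ciart*, a repressor within the clock, was at 25.4, 29.4 and 36.2 CPM (WT) and 7.80, 7.49 and 8.15 CPM (GR LKO) on caloric restriction, and at 38.5, 28.8, 36.4 and 40.0 CPM and 20, 19, 17.6 and 18.6 CPM on control diet. GR LKO livers were below WT livers on each diet without overlap, by -1.94 ± 0.14 and -0.93 ± 0.12, and the interaction was -1.01 ± 0.18 (adjusted p = 0.0234). The call was lost without any of the 3 restricted GR LKO livers (adjusted p up to 0.0555) and in the fit of 78 libraries (0.11, edgeR). *Tef*, an output transcription factor of the clock, had 0.38 ± 0.08 (adjusted p = 0.0484), and that call was lost in each of the 14 fits without a liver (adjusted p up to 0.111). It was also lost with RLE scaling, a weaker filter, 3 mice per group, thinned counts and 78 libraries (up to 0.252, edgeR). Of 23 core clock genes 22 were tested, with 5 above and 3 below 0 at an unadjusted p under 0.05, 2 above and 2 below called by DESeq2, and a median of -0.02.

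Growth hormone-dependent and sex-biased genes included the major urinary proteins, pheromone carriers made in male liver from near-identical gene copies. *Mup7* was at 195, 1884 and 525 CPM (WT) and 21.5, 48.2 and 10.9 CPM (GR LKO) on caloric restriction, and at 27966, 25876, 22747 and 19403 CPM and 17537, 20421, 15135 and 9096 CPM on control diet. The genotypes did not overlap on caloric restriction, where WT livers spread from 195 to 1884 CPM, and overlapped on control diet. *Mup7* had an interaction of -4.38 ± 0.89 (adjusted p = 0.0369) and *Mup11* of -3.41 ± 0.72 (adjusted p = 0.0423), each kept in 3 of the 14 fits without a liver (adjusted p up to 0.104 and 0.121 in the others). Both were lost with limma-voom and, in edgeR, with 3 mice per group and 78 libraries (up to 0.154 and 0.124). Which copy the counts belong to is uncertain. *Fmo2*, a flavin monooxygenase, was at 268, 270.4 and 193 CPM (WT) and 202, 125 and 140.3 CPM (GR LKO) on caloric restriction, and at 10.4, 9.07, 9.35 and 10.7 CPM and 14.6, 14.6, 15.2 and 18.9 CPM on control diet. The genotypes overlapped on caloric restriction, where the genotype effect was -0.63 ± 0.17, and not on control diet, where it was 0.69 ± 0.17. *Fmo2* had an interaction of -1.32 ± 0.24 (adjusted p = 0.0268). The call of *Fmo2* was kept in 10 of the 14 fits without a liver, and was lost without replicate 3 of WT or replicate 4 of GR LKO on control diet and without replicate 2 of WT or replicate 3 of GR LKO on caloric restriction (adjusted p up to 0.0693, edgeR). It was also lost with 3 mice per group and in the fit of 78 libraries (up to 0.244, edgeR). Of 40 listed genes 36 were tested, with 3 above and 9 below 0 at an unadjusted p under 0.05, 1 above and 5 below called by DESeq2, and a median of -0.26.

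Of 38 genes of xenobiotic metabolism 38 were tested and *Ugt2b35*, a glucuronosyltransferase of a family with similar copies, was called at 1.32 ± 0.28 (adjusted p = 0.0483), kept in 1 of the 14 fits without a liver (up to 0.118 in the others, edgeR). That call was also lost with limma-voom and, in edgeR, with RLE scaling, a weaker filter, 3 mice per group or thinned counts (up to 0.0851). At an unadjusted p under 0.05, 12 of that list were above and 3 below 0, DESeq2 called 4 above and 2 below, and the median was 0.40. Of 25 genes of mTORC1 control 24 were tested with a median of -0.01 and 1 called below 0 by DESeq2, and *Eif4e*, the cap-binding translation factor, was called at -0.59 ± 0.12 (adjusted p = 0.0381), kept in 3 of the 14 fits without a liver (up to 0.112 in the others) and lost with a weaker filter or 3 mice per group (up to 0.0779, edgeR). *Apol7a*, of the apolipoprotein L family, was at 83.2, 98 and 87.7 CPM (WT) and 204, 209 and 212 CPM (GR LKO) on caloric restriction, and at 137, 145, 124 and 118 CPM and 136, 111, 137 and 159 CPM on control diet. Genotypes were apart on caloric restriction and mixed on control diet. The genotype effect of *Apol7a* was 1.24 ± 0.12 and 0.06 ± 0.10, and the interaction was called (adjusted p = 0.00493, edgeR).

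No gene of the following lists was called by edgeR in the fit of the 14 livers. Interferon-stimulated genes (29 of 30 tested) had a median of 0.37, with 2 above 0 at an unadjusted p under 0.05 and 1 called by DESeq2. Metallothioneins and zinc transporters (12 of 14 tested) had -0.23, with 1 above and 2 below and 1 called by DESeq2, and *Mt1*, a zinc-binding protein induced by glucocorticoids, at -2.69 (adjusted p = 0.128, but 0.0349 and so called in the fit of 78 libraries, edgeR). The unfolded protein response and heat shock genes (32 of 32) had -0.11, with 2 above and 3 below, and amino acid transporters with stress response genes (25 of 26) had -0.03, with 2 above and 1 below, and DESeq2 called none of either. Autophagy and lysosome genes (39 of 40) had -0.03, with 2 above and 7 below and 3 called by DESeq2. *Bnip3*, a mitophagy receptor of that list and of the list of insulin and FoxO signaling, was at -0.53 (adjusted p = 0.118, but 0.0416 and so called in the fit of 78 libraries, edgeR). Bile acid genes (27 of 28) had 0.05, with 1 above and 3 below and 1 called by DESeq2. Cell cycle and replication genes (27 of 35) had 0.05 (-0.03 with genes at 3 counts or fewer set to that bound), with 2 above and none below and 1 called by DESeq2. Cytosolic ribosomal protein genes (55 of 55) had -0.04, with 1 above and none below and none called by DESeq2.

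Markers of Kupffer and myeloid cells, the resident macrophages and other phagocytes of the liver, had interactions above 0 that edgeR did not call. Their summed level over 8 markers was 53.5, 87.5 and 63.9 CPM (WT) and 148, 118 and 179 CPM (GR LKO) on caloric restriction, and 94.0, 76.0, 65.8 and 98.5 CPM and 65.2, 97.5, 74.7 and 98 CPM on control diet. The 3 restricted GR LKO livers were above the other 11, and the genotypes overlapped on control diet. All 8 markers were tested and none was called for the interaction by edgeR. Of the 8 markers 6 had an interaction above 0 at an unadjusted p under 0.05, against 7.48% of all genes tested. DESeq2 called 4 of the 8 above 0, against 237 of the 12225 genes, and the median interaction was 1.07. For genotype edgeR called 7 of the 8 on caloric restriction and 0 on control diet, where 17.4% and 2.96% of all genes tested were called. Their median genotype effects were 1.06 and 0.03. *Clec4f*, a Kupffer cell lectin, was the most abundant at 25.4% of the sum, with an interaction of 1.14 (95% interval 0.53 to 1.75). More cells of a type and more RNA per cell cannot be told apart in bulk liver, and the part of these cells in the interactions above 0 was not tested. Of 6 lymphocyte markers 1 was tested, *Ptprc*, at 1.07 (95% interval 0.17 to 1.98), which passed an unadjusted p under 0.05 but was called by neither edgeR nor DESeq2, and the list summed to 2.05 to 6.21 CPM.

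Endothelial markers (6 of 6 tested, *Clec4g* 30.7% of the sum) summed to 139.9 to 169 CPM (WT) and 186 to 206 CPM (GR LKO) on caloric restriction and 69.8 to 82.2 CPM and 70.1 to 104 CPM on control diet, with a median interaction of 0.17. Stellate cell and fibroblast markers (6 of 6, *Dcn* 62.8%) had a median of -0.18 and summed to 84.4 to 244 CPM, cholangiocyte markers (4 of 5, *Spp1* 88.3%, *Epcam* at 0 in all 14 livers) 0.18 and 21.4 to 50.6 CPM, and erythrocyte markers (5 of 6, *Hbb-bs* 40.9%) -0.06 and 333 to 823 CPM. None of these was called by edgeR, with 1 stellate and 1 erythrocyte marker above 0 at an unadjusted p under 0.05 and 1 erythrocyte marker called by DESeq2. Of 5 neutrophil markers none passed the filter, and they summed to at most 0.805 CPM. Among 8 adipocyte markers *Plin1* and *Lep* were at 0 in all 14 livers and *Car3*, a carbonic anhydrase that hepatocytes also make, held 99.4% of the sum. *Cfd*, a complement protease of fat, was at 2.41, 2.76, 33.3 and 6.38 CPM in the GR LKO livers on control diet and at most 0.266 CPM in the other 10. All 4 were high, replicate 3 most, and *Cfd* was called for genotype on control diet (adjusted p = 0.0131, edgeR). Replicate 3 also stood apart in *Cidec*, a lipid droplet protein, at 47.5 CPM against 2.47 to 4.80 CPM in its group. A median over the 4 markers tested would rest in part on that liver and is not given, and *Car3* alone was called. *Car3* was at 251, 394 and 248 CPM (WT) and 1386, 1710 and 1698 CPM (GR LKO) on caloric restriction, and at 3452, 2397, 2821 and 2102 CPM and 3768, 3650, 5794 and 4385 CPM on control diet. GR LKO livers were above WT livers on each diet, and the interaction was 1.73 ± 0.30 (adjusted p = 0.0221), lost without replicate 3 of WT or replicate 3 of GR LKO on caloric restriction (adjusted p up to 0.06, edgeR).

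Among the 123 genes, 5 had a group of livers with 3 counts or fewer in each, and their fitted values are no measure of size. *Bcar1*, an adaptor protein of focal adhesions, was at 0 in all 3 restricted WT livers and at 14.3, 11.4 and 1.94 CPM in the GR LKO livers, at least 50-fold higher against a floor of 3 counts per library, while both genotypes held it on control diet (7.49 to 21.8 CPM (WT) and 11.7 to 31.6 CPM (GR LKO)). In the separate WT diet experiment *Bcar1* was at a mean of 10.6 CPM on caloric restriction, and *Gm7666* at a mean of 3.35 CPM. The predicted genes *Gm7666* and *Gm13169* were likewise at 0 in restricted WT and at least 9.21-fold and 6.62-fold higher in restricted GR LKO. ENSMUSG00000074828, an ID without a symbol, was at 0 in the restricted GR LKO livers and at least 192-fold higher in restricted WT. *Nudt16l1* was at 0 in control WT and at least 14.4-fold higher in control GR LKO. The last 3 were named after their values were seen. *Fam213b*, which encodes a prostaglandin F synthase, had the largest interaction above 0 outside these, 2.55 ± 0.52 (adjusted p = 0.0359). It was at 8.87, 10.1 and 9.16 CPM (WT) and 20.3, 24.4 and 10.9 CPM (GR LKO) on caloric restriction and 29.7, 8.93, 27.9 and 22.5 CPM and 7.16, 10.7, 7.01 and 5.31 CPM on control diet. WT replicate 2 on control diet lay within the GR LKO values. The call was kept in 4 of the 14 fits without a liver (adjusted p up to 0.0924 in the others, edgeR) and lost with 3 mice per group and limma-voom (up to 0.085). *Bcar1* kept its call in 4 of 14 as well, with adjusted p up to 0.0876 in the others, and lost it with 3 mice per group, thinned counts and limma-voom (up to 0.368). That of *Gm7666* was lost in the fit of 78 libraries (0.0758).

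The same interaction was fitted at every time point over all 78 libraries of both series, and 13376 genes were tested. It was called for 0.179% of genes at ZT8, 3.01% at ZT12, 0.486% at ZT16 and 0.0224% at ZT20. At ZT0 and ZT4 edgeR, the only tool run there, called 0 genes (0%), with 1416 and 715 at an unadjusted p under 0.05 against 2122 at ZT12. Of the 60 genes above 0 at ZT12, *Car3* was called at ZT8 and *Serpina6* and *Bdh1* at ZT16. Of the 63 below 0, 10 were called at ZT8, among them *Fbxo31*, *Wfdc21*, *Cdip1*, *Gfra1*, *Plin5*, *Nucks1*, *Gne*, *Serpina3k* and *Tango2*. The last 2 of these were also the 2 called at ZT16. The median interaction of the 60 was 0.26 at ZT8, 0.00 at ZT16, 0.01 at ZT20, -0.10 at ZT0 and 0.07 at ZT4, and that of the 63 was -0.27, 0.06, -0.03, -0.18 and -0.20. The other time points share no liver with ZT12.

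Whether the interaction at ZT12 differed from that at other times was tested as a signed difference, not one of size. The difference from the mean of the other 5 time points was called for 237 of 13376 genes (1.77%). Without replicate 3 of WT or replicate 1 of GR LKO on control diet this count was 113 or 150, without replicate 2 of WT or replicate 2 or 3 of GR LKO on caloric restriction 119, 129 or 120, and with DESeq2 420. The genes below were named for their interaction at ZT12, and the same ZT12 livers enter this test, so that the selection favours a difference. *Cdkn1a* had interactions of 0.13, 0.18, -0.05, -0.32 and -0.02 at ZT0, ZT4, ZT8, ZT16 and ZT20 against -3.73 at ZT12, a difference of -3.71 (adjusted p = 0.00143, edgeR). For *Clpx* the difference was -1.26 (adjusted p = 0.00173, edgeR), with an interaction of 0.58 at ZT16 (adjusted p = 0.298, edgeR). The difference was -1.04 for *Gfra1*, -0.85 for *Nucks1*, 1.12 for *Gna12*, 1.75 for *Klhdc7a*, 0.77 for *Chdh* and 1.76 for *Sept11* (adjusted p 9.93e-05 to 0.00603, edgeR). It was not called for *Serpina3k* (-1.15, adjusted p = 0.139), whose interaction was -1.96 at ZT8 and -2.02 at ZT16, nor for *Serpina6* (0.62, adjusted p = 0.361), at 1.12 and 1.39, or *Wfdc21* (-0.02, adjusted p = 1), at -2.07 and -0.95 (edgeR).

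**Figure D3:**
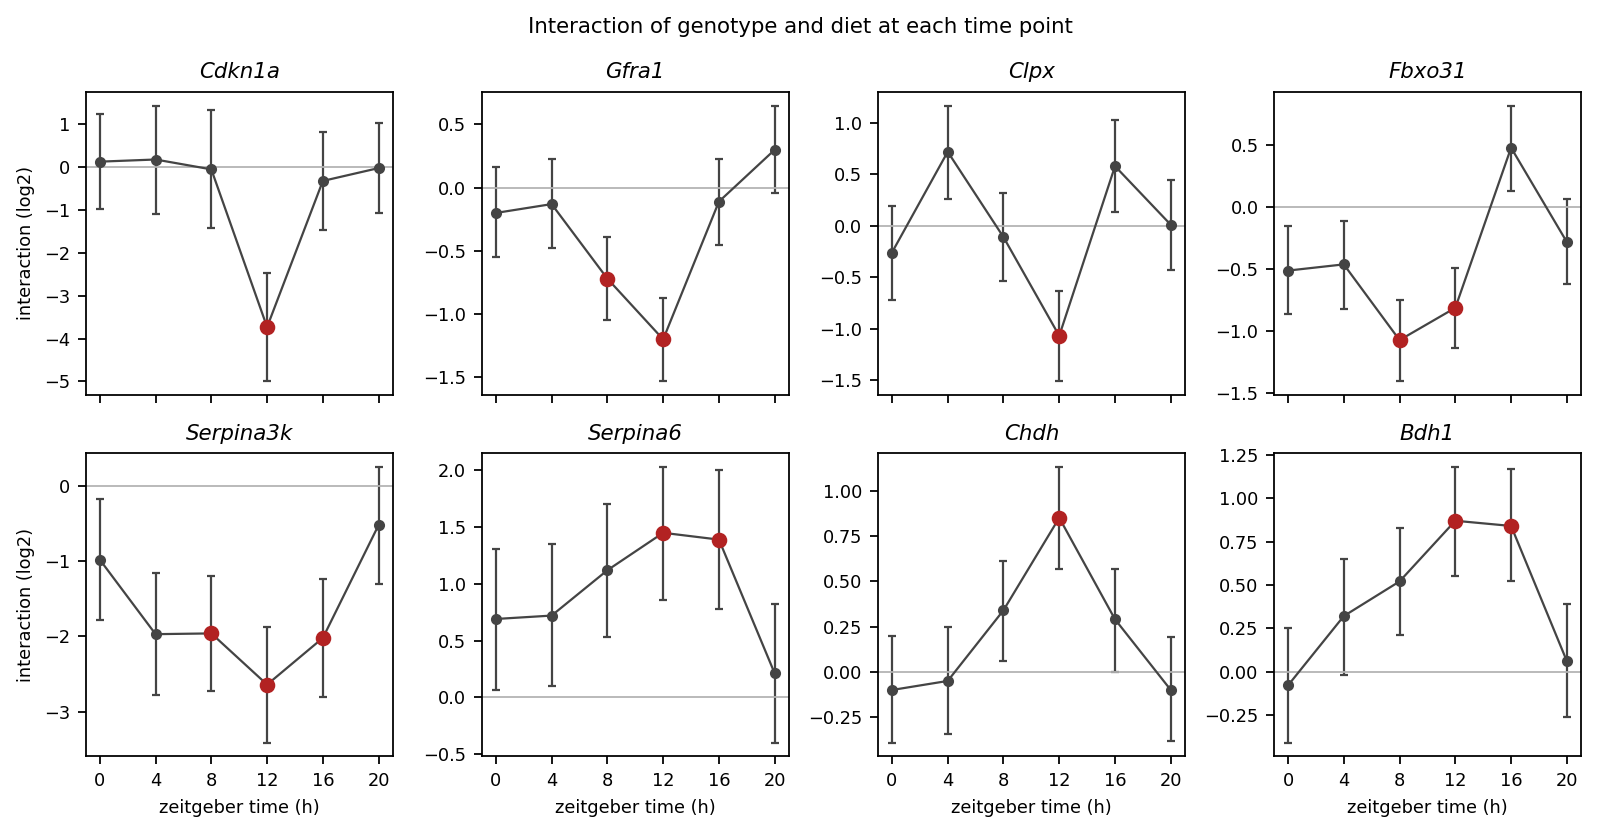
Interaction of genotype and diet (log2, with 95% interval) at each zeitgeber time for 8 genes, from the fit of 78 libraries, with called values in red. *Cdkn1a* is near 0 at all times but ZT12 (-3.73), whereas the estimates of *Serpina3k* are below 0 throughout, at -0.52 to -2.64. They were called at ZT8, ZT12 and ZT16 only, and the interval at ZT20 includes 0 (-1.30 to 0.25).

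The separate experiment in WT mice gives the diet effect without the batch, in livers that entered none of the fits above. There 6155 of 13062 genes were called (47.1%), 3073 higher on caloric restriction (23.5%) and 3082 lower (23.6%). Of the 60 genes with an interaction above 0, 4 were higher (6.67%: *Nab1*, *Sept11*, *Dsc2* and *Gpd1l*, the last 2 named after their values were seen) and 35 lower (58.3%) on caloric restriction, with a median of -0.43. Of the 63 with an interaction below 0, 28 were higher (44.4%) and 13 lower (20.6%), with a median of 0.24, against a median of 0.00 over all genes tested. *Cdkn1a* rose from a mean of 1.82 CPM to 63.7 CPM (5.12 ± 0.23, adjusted p = 4.39e-05), *Clpx* from 52.3 to 154 CPM (1.56 ± 0.10, adjusted p = 0.000134) and *Tango2* from 36.4 to 79.2 CPM (1.12 ± 0.10, adjusted p = 0.000333, edgeR). *Klhdc7a* fell from 33.7 to 2.99 CPM, a change of -3.50 ± 0.29, *Apol7a* from 147 to 58.6 CPM (-1.33 ± 0.17), *St6gal1* from 117 to 43.7 CPM (-1.42 ± 0.12) and *Bdh1* from 293 to 110.2 CPM (-1.42 ± 0.14, adjusted p 0.000255 to 0.0011 for the 4, edgeR). *Serpina3k* also fell, from 10391 to 4629 CPM (-1.17 ± 0.10, adjusted p = 0.000296, edgeR), although its interaction was below 0, and *Serpina6* did not pass the test (241 and 235 CPM, -0.04 ± 0.08, adjusted p = 0.729, edgeR). *Mup7* went from 9274 to 16.1 CPM and *Mup11* from 2679 to 19.5 CPM (-9.17 and -7.11). The control livers of that experiment are titled AL while their treatment label reads night-restricted feeding.

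In the corticosterone experiment, in WT mice, 935 of 11523 genes were called (8.11%), 515 higher with the hormone (4.47%) and 420 lower (3.64%). Of the 63 genes with an interaction below 0, 13 were higher (20.6%), 0 were lower by edgeR (2 at an unadjusted p under 0.05, 0 by DESeq2), and the median was 0.18. Of the 60 with an interaction above 0, 4 were higher (*Mvp*, *Ptprf*, *Flot1* and *Slc4a4*) and 4 lower (*Car3*, *Sept11*, *Dclk3* and *Col27a1*), 6.67% each, with a median of 0.03. All of these but *Car3* and *Sept11* were named after their values were seen. *Cdkn1a* rose by 3.07 (adjusted p = 0.0108), *Ciart* by 2.94 (adjusted p = 0.0187), *Plin5* by 1.37 (adjusted p = 0.00121), *Fbxo31* by 1.36 (adjusted p = 0.0103) and *Gne* by 1.02 (adjusted p = 0.00586, edgeR). *Klf9* had 0.87 (adjusted p = 0.0884) and *Tango2* 0.23 (adjusted p = 0.359), which did not pass the test, and *Sept11* and *Car3*, with interactions above 0, fell by 1.21 and 0.90 (adjusted p = 0.0251 and 0.0231, edgeR). The count of 935 moved to 421, 206 or 438 without control replicate 1, 2 or 3 and to 446 or 395 without CORT replicate 1 or 3.

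**Figure D4:**
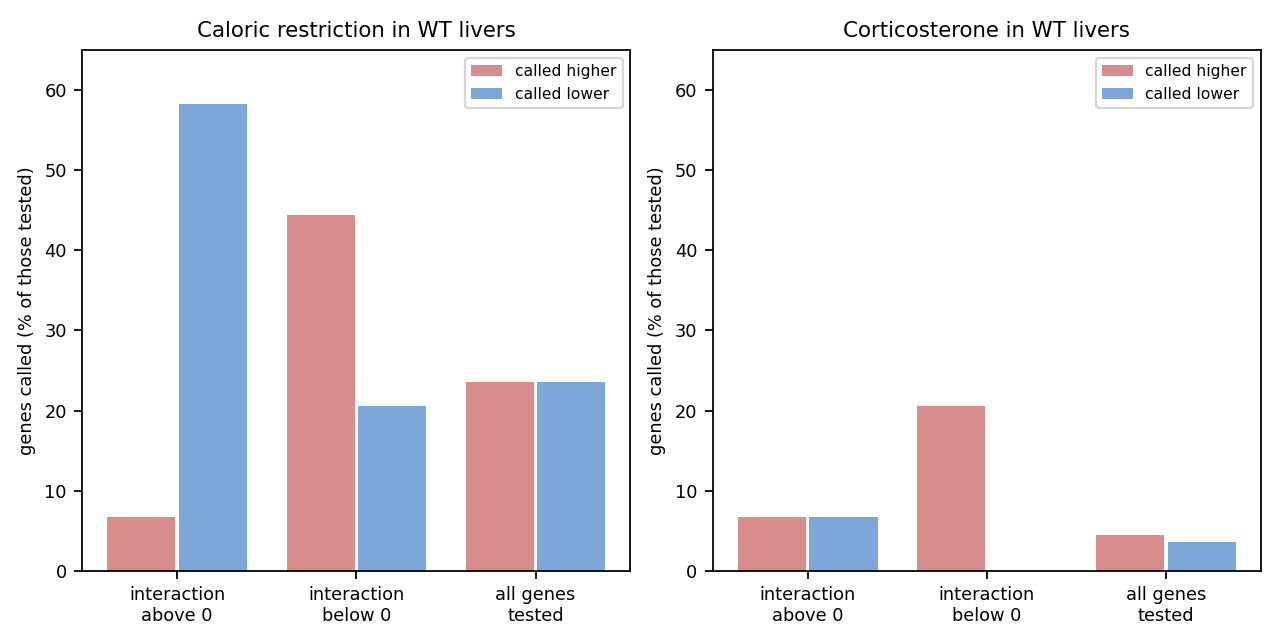
Share of genes called higher (red) or lower (blue) on caloric restriction (left) and with corticosterone (right) in WT livers of separate experiments, as a percent of the genes tested, for genes with an interaction above 0, below 0 and all genes tested. Of genes above 0, 58.3% were lower on caloric restriction against 23.6% of all genes, and of genes below 0, 20.6% were higher with corticosterone against 4.47%.

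Promoter windows from RefSeq (GRCm38.p6, 250 bases before to 50 after a start) were found for 46 of the 60 genes above 0 (76.7%), 49 of the 63 below 0 (77.8%) and 9410 of the 12225 tested (77.0%), so that a comparison of motif shares is void, since fewer than 80% of the genes have a window. Among all 32851 windows, on either strand, ACANNNTGT, the core of a glucocorticoid response element, was held by 6.85%, the FOX motif TGTTTAC by 3.65%, the STAT5 motif TTCNNNGAA by 8.30% and the E-box CACGTG, which clock factors bind, by 7.15%. The windows of 3 genes with an interaction below 0 are shown, picked from the named genes whose windows hold such letters, given in capitals. Other named genes below 0 hold matches too: *Eif4e* (E-box and STAT5), *Pdp2* (E-box), *Fmo2* (FOX and STAT5) and *F9* (STAT5). So do genes above 0: *Sc5d* and *Tef* (E-box), *Ugt2b35* (FOX) and *Chdh* (STAT5). A match is a description of the letters only. *Tango2* (chr16:18348049-18348348, minus strand) holds the receptor core, in 1 of its 3 windows and in no other of the 63 windows of genes below 0. *Ciart* (chr3:95882179-95882478, minus strand) holds 3 E-boxes, and *Klf9* (chr19:23140976-23141275, plus strand) holds a FOX match on the other strand, GTAAACA, and a STAT5 match.
Tango2: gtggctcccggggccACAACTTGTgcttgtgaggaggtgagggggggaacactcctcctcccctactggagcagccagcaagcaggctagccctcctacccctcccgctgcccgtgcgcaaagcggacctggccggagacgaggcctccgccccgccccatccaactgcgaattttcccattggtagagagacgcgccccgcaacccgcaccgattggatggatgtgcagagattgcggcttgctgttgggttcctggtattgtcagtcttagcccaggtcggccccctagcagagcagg
Ciart: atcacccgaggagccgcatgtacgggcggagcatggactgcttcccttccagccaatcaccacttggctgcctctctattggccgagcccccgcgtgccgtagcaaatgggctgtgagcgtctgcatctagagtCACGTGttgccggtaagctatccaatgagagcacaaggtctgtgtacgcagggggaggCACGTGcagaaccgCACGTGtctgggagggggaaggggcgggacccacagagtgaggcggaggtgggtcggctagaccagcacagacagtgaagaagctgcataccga
Klf9: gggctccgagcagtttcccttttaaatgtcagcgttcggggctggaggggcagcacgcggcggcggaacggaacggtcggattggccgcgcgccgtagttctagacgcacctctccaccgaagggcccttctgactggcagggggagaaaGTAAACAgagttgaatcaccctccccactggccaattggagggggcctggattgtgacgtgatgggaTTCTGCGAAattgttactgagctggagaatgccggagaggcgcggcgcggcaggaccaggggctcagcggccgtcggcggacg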

How the data were processed

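RNA was measured in whole liver of 14 of 90 mice by bulk sequencing of polyadenylated RNA. Estimated counts per gene were used as the authors deposited them: after FastQC 0.11.9, the authors quantified reads with Salmon 1.8.0 and summed transcripts to genes with tximport. The processing notes name mm10, and the transcript annotation is not given in the sources used here. A table of 6 variance-stabilized columns was not used. Of 27654 gene IDs, 410 had no symbol and held 0.107% of the counts.

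Counts were rounded. In R 4.3.3, edgeR 4.0.16 fitted 1 mean per group to the 14 libraries after TMM scaling and a filter (filterByExpr, minimum count 10), and tested contrasts with quasi-likelihood F tests and the Benjamini-Hochberg adjustment over all genes tested, threshold 0.05. The fits over 78 libraries and of the separate experiments used the same steps. Libraries held 11408194 to 20788575 counts, so that 3 counts, the floor, stood for 0.158 to 0.266 CPM. The separate diet and corticosterone libraries held 36442195 to 39492146 and 13739631 to 16077943. Replicate libraries all differed, with a chi-square per degree of freedom of at least 12.6. Alternatives were DESeq2 1.42.0, limma-voom (limma 3.58.1), RLE scaling, other filters, thinned counts, 3 mice per group, all 78 libraries, a replicate block and each liver left out. Tables and figures used Python 3.11.15 with pandas 2.3.3, numpy 2.4.6 and matplotlib 3.10.9. The code was tested on simulated data.

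Members and lists were chosen with earlier results of these data known. Genes named are *Nr3c1*, the 12 called genes with the smallest p and the 4 with the largest contrast in each direction (at least 5 CPM in a group, with a symbol, no group spread from 3 counts or fewer to 50 or more), called members of lists, and up to 4 uncalled members per list with the highest CPM. A gene that this rule names is not reported here.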

Additional observations from a re-analysis of the deposited data

Results flagged for a closer look

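The interaction was called for 123 genes at ZT12, and the difference between diets in the effect of GR loss is what singled this count out. It was tested on the libraries of 2 batches, 1 per diet. A shift common to a batch drops out of the contrast, but whether the batches differed in how they scale a genotype difference was not tested.

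The genes named by rule whose interaction was called, with *Nr3c1*, were examined for outlying livers, and in 5 of their 88 groups of 4 control livers 1 liver lay far from the other 3, by the ratio of its gap to the range of the group (Dixon's ratio, beyond its 95% critical value). These were *Chdh* (0.86), *Gna12* (0.968), *Gfra1* (0.959) and *Cdip1* (0.921) in WT and *Fmo2* (0.859) in GR LKO. By chance about 1 in 20 such groups would pass that value, and the livers were kept. Uncalled genes, such as *Cidec*, *Cfd* and *Pck1*, were not part of these groups.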

How the results depend on the processing

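The 123 interaction calls at ZT12 became 467 with DESeq2, 402 in the fit of all 78 libraries and 79 with 3 mice per group on control diet, and 89 to 123 with RLE scaling, other filters, thinned counts or limma-voom. The 60 calls above 0 became 237 with DESeq2 and 168 with 78 libraries, and the 63 below 0 became 230, 234 and, with 3 mice, 36. Leaving out 1 liver gave 49 to 148 interaction calls, 22 to 73 above 0 and 25 to 75 below. The genotype calls on caloric restriction (2132) ranged from 1453 to 2211 without a liver. The genotype calls on control diet at ZT12 (362) became 602 with DESeq2, 571 with 78 libraries and 237 with 3 mice, and 225 to 365 without a liver. The 237 calls for the difference of ZT12 from the other times became 420 with DESeq2 and 113 to 355 without a liver. Diet calls (6155) ranged from 4512 to 6471 and corticosterone calls (935) from 206 to 1008 without a liver. Fewer livers lower the power of a test, and otherwise the cause was not tested. Of the 123 genes 34 were called in all 14 fits without a liver. Of the 43 called genes named by the rule, none reversed its sign, 42 were called by DESeq2, 38 by limma-voom, 36 with 78 libraries, 31 with 3 mice and 28 to 35 without a liver. With the replicate number as a block within each diet, 2 of these 43 and 3 of the 123 kept their call. *Cdkn1a*, *Serpina6* and *Chdh* were among those that lost it (adjusted p = 0.0602, 0.0681 and 0.0702, edgeR). Of the uncalled genes named by the rule, *Pck1*, *Mat1a*, *Cyp4a14*, *Tdo2*, *Apoa1*, *Eif4ebp3* and *Mt1* were each called in 1 fit without a liver. With DESeq2 or RLE scaling no median of a list of pathway genes moved by 0.1 or changed its sign. With genes at 3 counts or fewer set to that bound the median of the cell cycle list went from 0.05 to -0.03. Depth limits genes near 1 CPM, such as *Cdkn1a* on control diet.

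A fit with the replicate number as a block within each diet gave 5 interaction calls (*Bcar1* above 0, and *Serpina3k*, *Mt2*, *Mup10* and ENSMUSG00000074828 below, 1 and 4, of which *Mt2*, *Mup10* and the ID were named after their values were seen), genotype calls on caloric restriction at ZT12 of 1324, against 177 under control feeding, and a replicate block gave 534 corticosterone calls. Deviations of WT and GR LKO livers of the same number correlated at -0.0334, 0.0303 and -0.0169 on caloric restriction and 0.0180, 0.0591, 0.0078 and 0.0639 on control diet. Those of livers of different numbers correlated at -0.0598 to 0.0755 and at -0.1033 to 0.0964. Whether the numbers pair the livers was not tested, nor was the cause of the lower counts.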
